A study of Mus musculus with 50 samples.

Results

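The extracellular matrix genes examined here are the collagens, laminins and nidogens, together with fibronectin (Fn1), Sparc, decorin (Dcn), lumican (Lum) and perlecan (Hspg2), and the integrins through which cells attach to them. They were picked by symbol from the array's probe-to-gene table: names that begin with Col and a digit, Lama, Lamb or Lamc and a digit, Itga, Itgb or Nid and a digit, plus the 5 single genes. This gave 67 of the 8252 genes with a single symbol, on 99 probe sets. Of the 67, 24 had more than 1 probe set. The set with the highest mean of log2(signal + 30.7) over 50 arrays stands for the gene. The set holds 31 collagen genes (8 fibrillar, 7 of basement membranes, 16 others), 9 laminin chains, 3 nidogen and perlecan genes, the 4 genes Fn1, Sparc, Dcn and Lum, 12 integrin alpha chains, 7 integrin beta chains and Itgb1bp1, which is no integrin and entered by its symbol only. Of the 67 genes, 48 were bright enough for testing.

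The arrays measured neocortex and hippocampus of 8-week-old mice, 50 arrays in all. In each tissue 10 arrays came from wild-type mice (5 males and 5 females), 10 from mice labelled S1P2-KO (5 and 5), which lack S1P2, and 5 from mice labelled S1P3-KO (2 males and 3 females), which lack S1P3; both are receptors for the signalling lipid sphingosine 1-phosphate. The series asks which transcripts are altered in either knockout, S1P2-deficient mice having sporadic seizures between 4 and 7 weeks of age that S1P3-deficient mice do not show. Neither the strain nor the targeted allele is given in the labels.

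Collagens are trimers of alpha chains: fibrillar collagens build cables, collagen IV builds the sheet of the basement membrane, and laminins, trimers of an alpha, a beta and a gamma chain, build a second sheet that nidogens and perlecan tie to the first. Integrins are pairs of an alpha and a beta chain that span the cell membrane and bind these proteins. In adult brain fibrillar matrix is scarce; basement membranes surround the blood vessels and underlie the meninges, and their proteins are made by endothelial cells, pericytes, fibroblasts and astrocytes.

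Promoter sequences were available for 43 of the 67 genes (48 windows, RefSeq, GRCm38.p6), each running from 250 bases before to 50 bases after the annotated start. 6 members are shown, 5′ to 3′ on the gene's own strand. Sparc, at chr11:55420031-55420330 (minus strand), and Lamb1, at chr12:31265043-31265342 (plus strand), were brighter in hippocampus. Itgav, at chr2:83724147-83724446 (plus strand), and Col6a1, at chr10:76725995-76726294 (minus strand), were brighter in neocortex, and these 4 are the members with a window whose wild-type arrays did not overlap between tissues. Col4a1, at chr8:11312777-11313076 (minus strand), and Col4a2, at chr8:11312555-11312854 (plus strand), encode the chains that assemble with each other into collagen IV. Capitals mark 3 motifs on either strand: the TATA box TATAAA, the box CCAAT and the GC box GGGCGG.
Sparc: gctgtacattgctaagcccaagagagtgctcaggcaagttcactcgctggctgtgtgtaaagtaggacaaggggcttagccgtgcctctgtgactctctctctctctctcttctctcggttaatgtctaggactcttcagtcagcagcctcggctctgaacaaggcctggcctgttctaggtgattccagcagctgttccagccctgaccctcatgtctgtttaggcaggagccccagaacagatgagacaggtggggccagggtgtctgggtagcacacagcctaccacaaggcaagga
Lamb1: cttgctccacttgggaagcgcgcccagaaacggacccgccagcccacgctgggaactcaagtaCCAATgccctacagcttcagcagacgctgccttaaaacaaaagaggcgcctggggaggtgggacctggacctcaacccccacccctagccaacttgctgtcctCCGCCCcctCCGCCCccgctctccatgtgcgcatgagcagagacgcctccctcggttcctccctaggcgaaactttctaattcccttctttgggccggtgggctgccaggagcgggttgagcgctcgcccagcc
Itgav: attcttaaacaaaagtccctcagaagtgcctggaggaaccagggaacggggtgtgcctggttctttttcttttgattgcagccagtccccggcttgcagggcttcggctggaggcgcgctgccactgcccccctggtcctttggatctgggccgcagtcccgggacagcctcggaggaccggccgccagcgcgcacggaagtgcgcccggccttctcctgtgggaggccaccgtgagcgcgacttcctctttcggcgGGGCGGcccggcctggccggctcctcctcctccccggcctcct
Col6a1: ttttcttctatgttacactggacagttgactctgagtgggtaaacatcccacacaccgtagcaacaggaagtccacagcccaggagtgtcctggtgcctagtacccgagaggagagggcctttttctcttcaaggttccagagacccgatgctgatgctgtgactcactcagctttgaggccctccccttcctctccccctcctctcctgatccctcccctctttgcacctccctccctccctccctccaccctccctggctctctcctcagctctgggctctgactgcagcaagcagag
Col4a1: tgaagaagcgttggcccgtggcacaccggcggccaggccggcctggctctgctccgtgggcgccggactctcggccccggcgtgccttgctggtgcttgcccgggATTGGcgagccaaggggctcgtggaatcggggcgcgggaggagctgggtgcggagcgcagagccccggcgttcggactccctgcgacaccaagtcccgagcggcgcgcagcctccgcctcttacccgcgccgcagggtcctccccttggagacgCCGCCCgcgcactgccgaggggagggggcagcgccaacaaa
Col4a2: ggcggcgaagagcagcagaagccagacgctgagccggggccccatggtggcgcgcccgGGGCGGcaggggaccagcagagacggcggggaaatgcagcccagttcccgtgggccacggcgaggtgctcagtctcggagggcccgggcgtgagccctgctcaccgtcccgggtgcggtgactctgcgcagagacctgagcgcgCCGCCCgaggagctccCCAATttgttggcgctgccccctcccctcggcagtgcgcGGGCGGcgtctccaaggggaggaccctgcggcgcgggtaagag
The Sparc and Col6a1 windows held none of the 3 motifs, the Itgav window held 1 GGGCGG, and the Lamb1 window held 1 CCAAT and 2 GGGCGG. Col4a1 and Col4a2 are transcribed away from each other, and their windows share 78 bases, from 11312777 to 11312854, so part of the Col4a1 line is the reverse complement of the end of the Col4a2 line. GGGCGG was found in 56.2% of the 48 member windows and in 35.7% of all 32851 windows of this length, CCAAT in 27.1% and 37.4%, and TATAAA in 10.4% and 13.6%. Both strands were searched, and a GGGCGG and a CCAAT can share end bases. These counts describe letters in a window and not bound sites. The 6 windows shown held 55.3% (Sparc) to 74.0% (Col4a1) G and C, against a median of 52.7% over all windows. The motif shares were not adjusted for this.

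Array medians ran from 299.6 to 413.8 signal units and every array had been scaled to the same trimmed mean, and no array was set aside. The log2 ratio between 3' and 5' probe sets of control transcripts, which climbs when RNA is degraded or poorly copied, exceeded 1 on 3 hippocampus arrays: wild-type replicate 4 (1.20), S1P2-KO replicate 7 (1.37) and S1P3-KO replicate 5 (4.46), against at most 0.75 on the other 47. S1P3-KO replicate 5 also correlated least with the arrays of its tissue (median r 0.906, next 0.943). The Y-linked transcript Eif2s3y matched the labelled sex on all 50 arrays. On arrays labelled S1P2-KO the log2 difference of S1pr2 from wild-type was -0.10 ± 0.14 (SE) in neocortex and -0.24 ± 0.16 in hippocampus. S1pr3 differed by -0.26 ± 0.17 and -0.69 ± 0.18 on arrays labelled S1P3-KO, and no limma adjusted p of these 4 was below 0.05 (lowest 0.164). The design text names S1P2-deficient mice where S1P3-deficient mice would stand, with 5 and 10 animals, so which knockout had 10 arrays rests on the sample titles, and S1pr2 does not check it. In hippocampus S1pr3 ran from 451.4 to 551.9 on arrays labelled S1P3-KO, below all those labelled S1P2-KO (637.4 to 1414.3). It overlapped wild-type there (470.3 to 1129.1) and both other groups in neocortex. Whether these probe sets lie in the deleted parts is not stated in the sources used here.

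In wild-type brain the matrix and integrin genes were split between the tissues. Of the 48 tested members, 10 (20.8%) differed between hippocampus and neocortex by limma (adjusted p under 0.05), against 14.6% of all 8534 probe sets tested. 5 were higher in hippocampus, namely Dcn, Sparc, Lamb1, Col5a2 and Itgb1bp1, where 7.83% of all probe sets were called in that direction, and 5 were lower, namely Itgav, Col6a1, Col19a1, Col5a1 and Col26a1, against 6.74%. In 6 members (12.5%) the 10 hippocampus arrays and the 10 neocortex arrays did not overlap, which held for 3.59% of all probe sets. The median difference was 0.06 over the 48 members and 0.01 over all probe sets, so the set did not lean to either tissue, and its median absolute difference was 0.26 against 0.16. Differences are log2 of signal plus 30.7 and so understate the change of dim genes. In bulk tissue fewer cells of a type and less RNA per cell cannot be told apart.

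**Figure D1:**
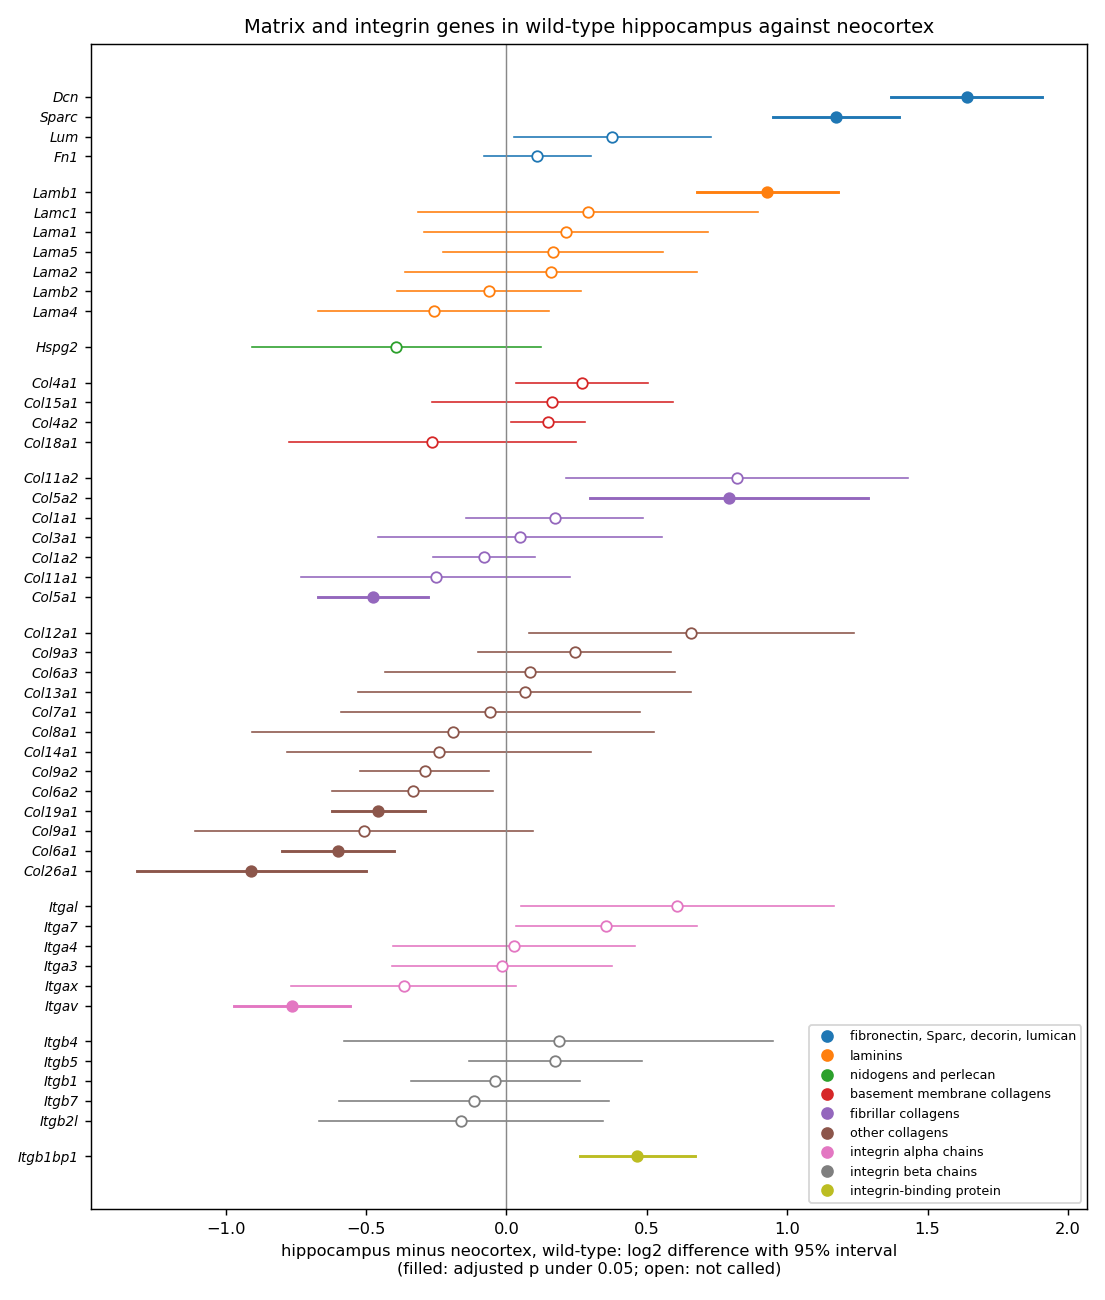
Log2 difference between wild-type hippocampus and neocortex (x axis, hippocampus minus neocortex; 10 arrays each) for the 48 tested members, coloured by class; points are limma estimates, bars 95% intervals, filled points have an adjusted p under 0.05. Dcn (1.64) and Sparc (1.17) lie farthest to the right and Col26a1 (-0.91) and Itgav (-0.76) farthest to the left among the 10 filled points.

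All 4 members of the group of fibronectin, Sparc, decorin and lumican had positive differences in wild-type hippocampus, and 2 of them passed. Decorin, a small proteoglycan that coats collagen fibrils and binds TGF-beta, had a signal of 622.0 to 1325.8 (median 1074) in neocortex and 2305.9 to 4580.9 (median 3122) in hippocampus. Every hippocampus array stood above every neocortex array, and the means were 1037 ± 227 (SD, n = 10) and 3300 ± 777. The difference was 1.64 ± 0.13 (SE; limma adjusted p = 4.98e-14), the largest of any member, or 3.12-fold. Sparc, a secreted glycoprotein that binds collagen, ran from 721.2 to 1330.7 (median 962) in neocortex and from 1688.1 to 2748.1 (median 2319) in hippocampus. These ranges also did not overlap, with a difference of 1.17 ± 0.11 (limma adjusted p = 6.62e-12, 2.26-fold). Lumican, a fibril-coating proteoglycan of the same family as decorin, differed by 0.38 ± 0.17 (limma adjusted p = 0.149). Fibronectin, the adhesive glycoprotein that integrins bind, differed by 0.11 ± 0.10 (limma adjusted p = 0.511), with medians of 1712 in neocortex and 1705 in hippocampus.

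Among the 7 tested laminin chains only Lamb1, a beta chain of the laminins, passed. Its signal was 235.2 to 327.9 (median 295) in neocortex and 460.5 to 719.7 (median 551) in hippocampus, again without overlap, and the difference was 0.93 ± 0.12 (limma adjusted p = 7.89e-08, 1.91-fold). The tested chains that would complete a trimer with it did not pass. The gamma chain Lamc1 differed by 0.29 ± 0.30. The alpha chains Lama1, Lama2, Lama4 and Lama5 differed by 0.21, 0.16, -0.26 and 0.17, with limma adjusted p from 0.463 to 0.754. Lamb2, the other beta chain tested, differed by -0.06 ± 0.16, with a 95% interval from -0.39 to 0.26. Perlecan, the heparan sulfate proteoglycan of basement membranes, differed by -0.39 ± 0.26 (limma adjusted p = 0.349).

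None of the 4 basement membrane collagens passed. Col4a1 differed by 0.27 ± 0.12 (limma adjusted p = 0.123), with medians of 1164 in neocortex and 1292 in hippocampus. Col4a2 differed by 0.15 ± 0.06 (limma adjusted p = 0.124; medians 2320 and 2557), and its SE was the lowest among the 48. Their 95% intervals, 0.03 to 0.50 and 0.02 to 0.28, leave room for a small excess in hippocampus and none for a 2-fold one. Col15a1 and Col18a1, collagens that carry heparan or chondroitin sulfate and lie at vascular basement membranes, differed by 0.16 ± 0.21 and -0.26 ± 0.25.

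The fibrillar collagens went in opposite directions. The chains Col5a1 and Col5a2 belong to collagen V, which regulates the diameter of collagen fibrils. Col5a1 ran from 1308.1 to 1687.7 (median 1491) in neocortex and from 802.0 to 1340.6 (median 1143) in hippocampus, with 9 of 10 hippocampus arrays below the lowest neocortex array, and differed by -0.48 ± 0.10 (limma adjusted p = 2.64e-04). Col5a2 was dim and variable, 28.8 to 337.2 (median 119) in neocortex and 137.7 to 304.8 (median 215) in hippocampus. Its arrays overlapped although all 10 hippocampus arrays stood above the neocortex median, and it differed by 0.79 ± 0.25 (limma adjusted p = 0.0208). That call was lost without wild-type neocortex replicate 6 (0.63, limma adjusted p = 0.0647) and with the mean level of choroid plexus markers as a covariate (0.67, adjusted p = 0.119). The chains of collagen I and III, the main fibrillar collagens of connective tissue, did not pass: Col1a1 differed by 0.17 ± 0.16, Col1a2 by -0.08 ± 0.09 and Col3a1 by 0.05 ± 0.25.

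Of the 13 other collagens 3 passed, all of them lower in hippocampus, and the median of the class was -0.24. Col6a1, a chain of the beaded filaments of collagen VI, ran from 1547.7 to 2424.7 (median 1948) in neocortex and from 1092.2 to 1545.7 (median 1253) in hippocampus. The ranges met without overlapping, and the difference was -0.60 ± 0.10 (limma adjusted p = 8.36e-06). Its partner chains were Col6a2, at -0.33 ± 0.14 (limma adjusted p = 0.113), and Col6a3, at 0.08 ± 0.26 (limma adjusted p = 0.876). Col19a1, a fibril-associated collagen that subsets of neurons make, was at 998.2 to 1387.1 (median 1202) in neocortex and 699.5 to 964.0 (median 885) in hippocampus, without overlap, a difference of -0.46 ± 0.08 (limma adjusted p = 4.35e-05). Col26a1, a short collagen with an EMI domain, was at 339.2 to 724.1 (median 446) and 51.4 to 484.5 (median 275), with overlap, and differed by -0.91 ± 0.20 (limma adjusted p = 8.58e-04). The chains Col9a1 and Col9a2 of collagen IX, which sits on fibrils, had differences of -0.51 ± 0.30 and -0.29 ± 0.11 and did not pass.

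Itgav, the alpha v chain that pairs with several beta chains to bind vitronectin and latent TGF-beta, was the only integrin chain that passed. In neocortex it was at 3389.4 to 4946.6 (median 3843) and in hippocampus at 1709.2 to 2991.7 (median 2382), so every neocortex array was above every hippocampus array. The difference was -0.76 ± 0.10 (limma adjusted p = 9.06e-08), 1.70-fold lower in hippocampus. The tested beta chains with which it pairs, Itgb5 and Itgb1, did not pass. Itgb5 differed by 0.17 ± 0.15 (limma adjusted p = 0.519). Itgb1, the beta chain shared by most matrix receptors, differed by -0.04 ± 0.15 (limma adjusted p = 0.901). Its other partner chains were not tested. Itga7, a laminin receptor of muscle, and Itgal, the alpha chain of the leukocyte integrin LFA-1, had differences of 0.36 ± 0.16 and 0.61 ± 0.28 and did not pass. Itgb1bp1, which encodes a cytoplasmic protein that binds the tail of Itgb1, was higher in hippocampus, at 596.9 to 828.5 (median 683) against 372.3 to 675.5 (median 479). It differed by 0.47 ± 0.10 (limma adjusted p = 6.15e-04), and 5 of 10 hippocampus arrays exceeded every neocortex array.

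**Figure D2:**
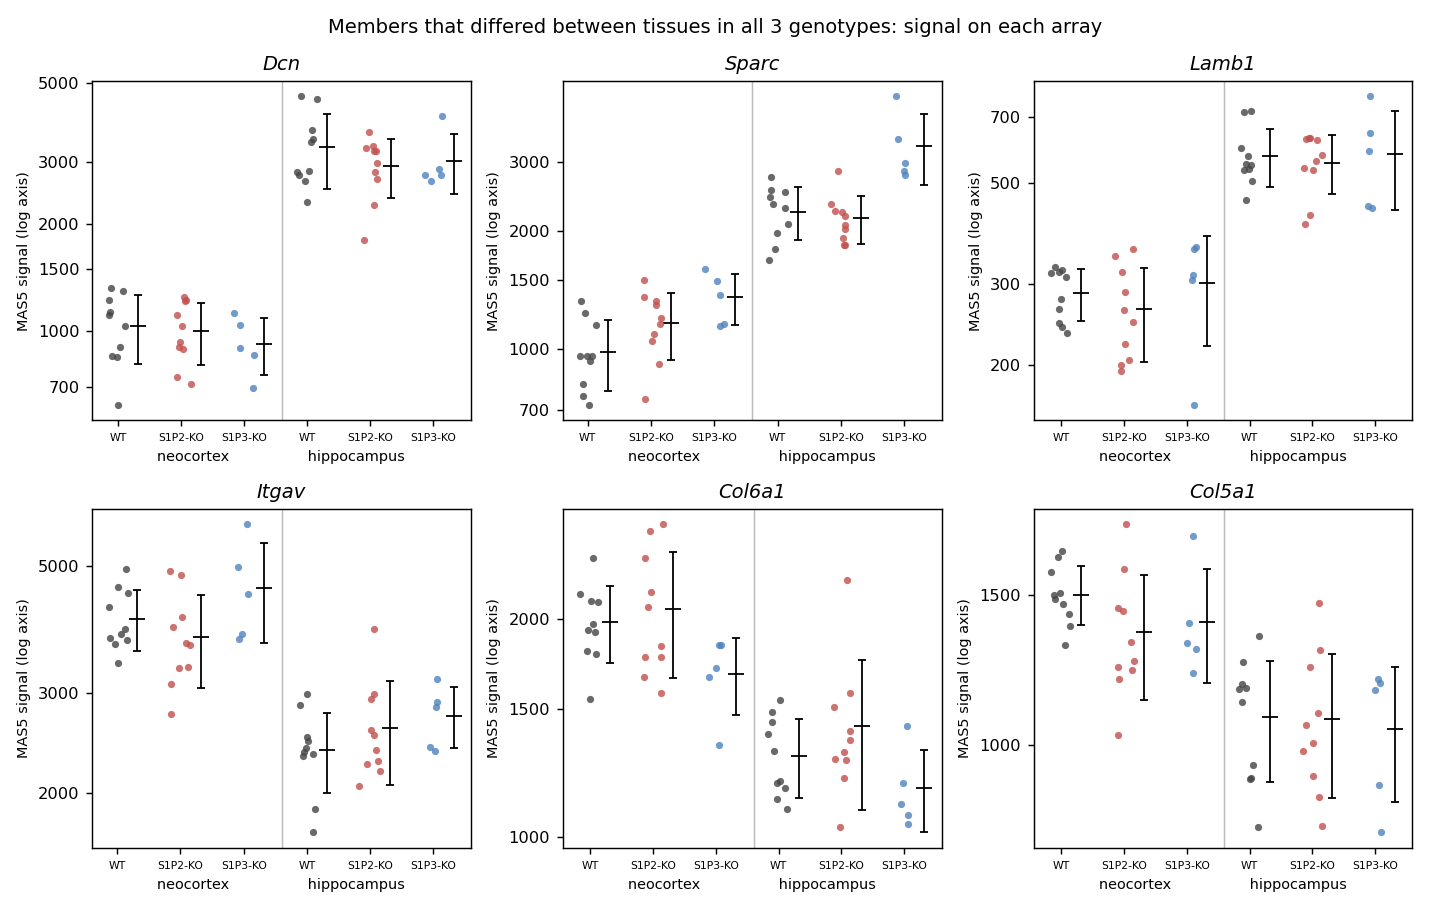
MAS5 signal on each array (y axis, log scale) in the 6 groups of genotype and tissue (x axis; WT is wild-type, n = 10, S1P2-KO n = 10, S1P3-KO n = 5) for the 6 members called between tissues in all 3 genotypes; points are arrays, bars the mean ± SD. The hippocampus means lie above the neocortex means of the same genotype for Dcn, Sparc and Lamb1 and below them for Itgav, Col6a1 and Col5a1, and the 5 S1P3-KO hippocampus arrays of Sparc (2785.3 to 4418.1) lie above the 10 wild-type ones (1688.1 to 2748.1).

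The 19 members that did not enter the tests had means over 50 arrays between 21.6 (Col22a1) and 139 (Itgb2). They were Col2a1, the cartilage collagen, Col10a1, Col17a1 and Col22a1, the collagen IV chains Col4a3, Col4a4 and Col4a5, the epithelial laminin chains Lama3 and Lamb3, both nidogens, Nid1 and Nid2, and the integrin chains Itga2, Itga5, Itga6, Itga8, Itgae, Itgam, Itgb2 and Itgb3. Nid1 lay between 6.5 and 210.1 on all arrays and Nid2 between 5.0 and 152.3. Itgam and Itgb2, which pair in the complement receptor of microglia, reached at most 224.4 and 342.1. No direction is given for these genes, since MAS5 signals in this range are noisy and the files hold no detection calls.

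Where a gene had more than 1 tested probe set, most sets went the same way. Of 13 such members, 10 had a single sign over their sets in the wild-type tissue comparison and 3 had mixed signs (Col1a1, Itgb1 and Itgb1bp1). The second set for Col6a1 differed by -1.12 ± 0.24 (limma adjusted p = 5.03e-04) and that for Col5a1 by -1.38 ± 0.25 (adjusted p = 3.36e-05), each called like the brighter set and larger in size. Of the other sets for Itgav, 1 was called at -0.84 ± 0.21 (limma adjusted p = 0.00266) and 1 was not, at -0.43 ± 0.43 (adjusted p = 0.573). For Col1a2, whose brighter set did not pass, a dimmer set was called at -0.88 ± 0.31 (limma adjusted p = 0.0466). The dimmer Lamb1 set differed by 0.50 ± 0.18 (limma adjusted p = 0.056) and missed the threshold. For Itgb1bp1 the other sets gave 0.27 ± 0.11 and -0.04 ± 0.18, and with the mean of its 3 sets the difference fell to 0.23 (limma adjusted p = 0.0926). The brightest sets for Itgav, Itgb1, Lamb1, Lamc1, Itga7 and Col13a1 carry the manufacturer's family suffix, which marks probes that related transcripts may share. Those for Col1a2 and Itgb1bp1 carry other suffixes of the manufacturer (r and g), while the dimmer Col1a2 set that was called carries none. Dcn, Sparc, Col19a1, Col26a1, Col4a1, Col4a2 and Fn1 had 1 set each, so no second reading of them exists here.

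The tissue difference was also measured within each knockout. In S1P2-KO mice 11 of 48 members (22.9%) passed, against 14.7% of all probe sets, and 8 of them were among the 10 called in wild-type (80.0% of those 10 and 72.7% of the 11). In S1P3-KO mice 6 members (12.5%) passed, against 12.0% of all probe sets, and all 6 were also called in the other genotypes (60.0% of the wild-type 10). These 6 were Dcn, Sparc, Lamb1, Itgav, Col6a1 and Col5a1.

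Dcn differed by 1.64 ± 0.13 in wild-type, 1.51 ± 0.13 in S1P2-KO and 1.66 ± 0.19 in S1P3-KO, and in each genotype every hippocampus array exceeded every neocortex array. Lamb1 differed by 0.93, 1.0 and 0.89 and Sparc by 1.17, 0.89 and 1.24, also with no overlap in any genotype. Itgav differed by -0.76, -0.52 and -0.74, Col6a1 by -0.60, -0.53 and -0.50, and Col5a1 by -0.48, -0.33 and -0.44. Signs and sizes were thus close across genotypes for these genes, and a test of the difference between genotypes is given further on. In S1P2-KO mice Col6a2, the partner of Col6a1, and Lama4, the alpha chain of vascular laminin, also passed, both lower in hippocampus. Col6a2 was at 661.3 to 988.6 (median 849) in S1P2-KO neocortex and 355.2 to 674.0 (median 464) in hippocampus, and differed by -0.79 ± 0.14 (limma adjusted p = 3.92e-05). Lama4 was at 287.4 to 532.3 (median 389) and 73.1 to 340.9 (median 232), and differed by -0.83 ± 0.21 (limma adjusted p = 0.00286). Col9a3, a chain of collagen IX, was higher in S1P2-KO hippocampus by 0.48 ± 0.17 (limma adjusted p = 0.0475).

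**Figure D3:**
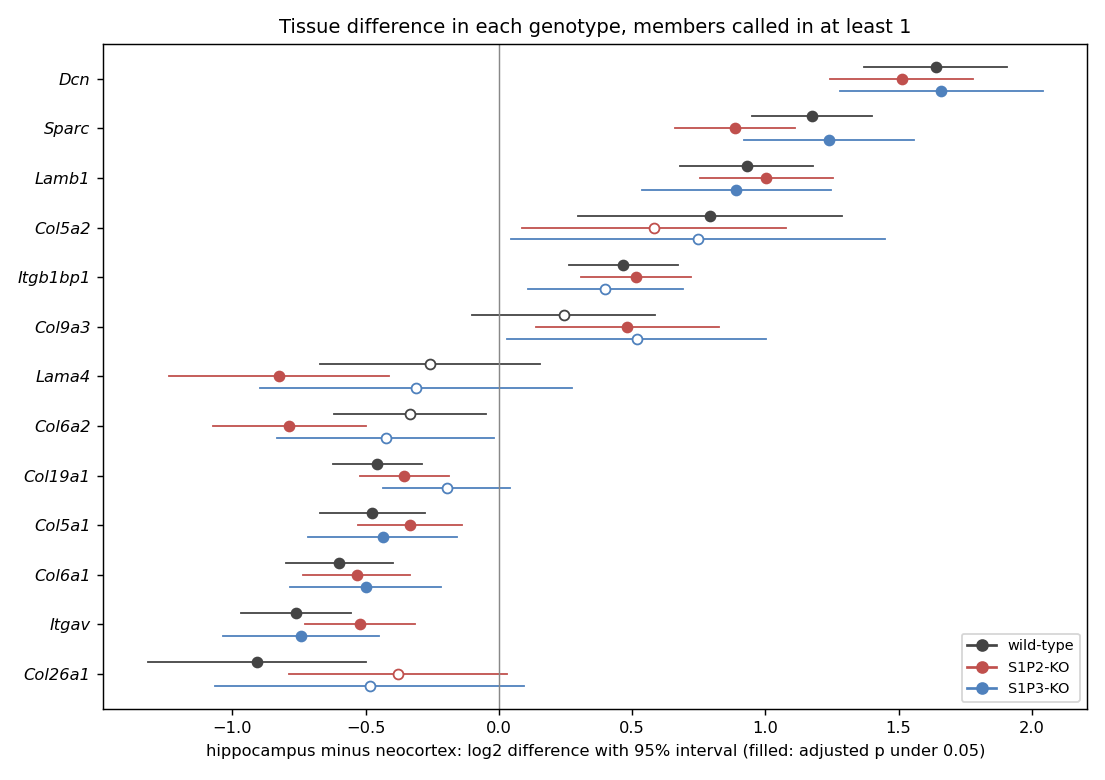
Log2 difference between hippocampus and neocortex (x axis, hippocampus minus neocortex) in wild-type, S1P2-KO and S1P3-KO mice for the 13 members called in at least 1 genotype; points are limma estimates, bars 95% intervals, filled points have an adjusted p under 0.05. Within each gene the 3 estimates share their sign, and 6 genes have 3 filled points.

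Some markers of other cell types in the tissue also differed, counted here without members of the matrix set. Of 15 tested markers of meninges and fibroblasts, 4 had a positive difference in wild-type hippocampus, none of them called, and 1, Ptgds, was called lower (-0.47 ± 0.09), with a median of -0.22. Their summed signal ran from 46417.3 to 56510.2 in neocortex and from 32399.5 to 50409.8 in hippocampus. Ptgds alone had mean signals of 33196 and 24205 there, so these sums mostly follow that gene. Choroid plexus markers had a median of 1.21 over 6 tested genes, with Kl (2.96 ± 0.39) and Calml4 (1.17 ± 0.41) called. Their summed signal ran from 1202.6 to 39499.8 among wild-type hippocampus arrays and from 1219.4 to 4249.1 in neocortex. Ttr alone ran from 27.3 to 33070.8 and from 46.8 to 2519.2 on these arrays. For 13 endothelial markers the median was -0.09 with Ramp2 higher (0.68 ± 0.09) and Eng lower (-0.38 ± 0.08), and for 11 markers of pericytes and smooth muscle it was -0.07 with Mylk higher (0.36 ± 0.08). Among 8 astrocyte markers Gfap (1.19 ± 0.13) and Gja1 (0.33 ± 0.10) were higher. Neuronal markers had a median of -0.35 over 10 genes, with Nefm (-1.20 ± 0.27) and Snap25 (-0.40 ± 0.07) called lower. Their summed signal ran from 91271.9 to 112527.6 (median 105634) in neocortex and from 77949.8 to 94368.3 (median 85830.0) in hippocampus, beside the lower Col19a1 there. Snap25 alone had mean signals of 51847 and 39279, so these sums follow that gene in large part. Oligodendrocyte markers had a median of 0.14 over 6 genes, with Cldn11 (0.43 ± 0.11) and Mbp (0.26 ± 0.08) called higher and summed medians of 30480 and 36221. Of 11 tested markers of microglia and macrophages none was called (median 0.05; 1 with an unadjusted p under 0.05). No marker of any of the 8 lists was at 0. With the mean of the choroid plexus list as a covariate Dcn differed by 1.68, Sparc by 1.21, Lamb1 by 0.79, Itgav by -0.71 and Col6a1 by -0.57, and with that of the meningeal list by 1.73, 1.16, 1.01, -0.83 and -0.63, all still called by limma. Such a fit adjusts for the mean of a few marker sets and does not test the part of choroid plexus or meninges in the result. The part of neuronal, oligodendrocyte, astrocyte and endothelial markers was not tested either.

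Genes that process, bind or answer to the matrix were described from 5 lists, whose counts stand beside 14.6% of all probe sets called in wild-type, 7.83% higher and 6.74% lower in hippocampus. Of 17 enzymes of collagen synthesis and crosslinking, 10 were tested and none was called in wild-type (median 0.12 against 0.01 over all probe sets; 2 with an unadjusted p under 0.05, as had 2260 of all 8534 probe sets). Of 12 tested matrix proteases and inhibitors 1 was called, Ctsb, the protease cathepsin B, at -0.20 ± 0.05. Of 21 tested proteoglycans, link proteins and tenascins 3 were higher and 2 lower: Matn2, a matrilin that links matrix filaments (1.01 ± 0.14), Gpc4 (0.81 ± 0.17) and Gpc1 (0.39 ± 0.11), both membrane-anchored heparan sulfate proteoglycans, against Fmod, a fibril-coating relative of decorin (-1.11 ± 0.30), and Spock1 (-0.61 ± 0.17). Of 19 tested genes of integrin adhesion and signalling, Itgb1bp1 not counted, 4 were higher and 3 lower. The largest was Ptk2b, a kinase related to focal adhesion kinase (0.81 ± 0.06, limma adjusted p = 3.80e-15), followed by the adaptors Pxn (0.39 ± 0.13) and Bcar1 (0.37 ± 0.12), while Actn4, an actin crosslinker, was lower (-0.32 ± 0.08). Of 18 tested genes of the TGF-beta pathway 2 were higher, Tgfb2 (1.33 ± 0.27) and Id3 (0.42 ± 0.13), and 3 lower, Ccn2, a secreted matrix regulator (-1.06 ± 0.16), Id2 (-0.60 ± 0.09) and Eng (-0.38 ± 0.08).

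In the knockouts against wild-type none of the 48 members was called by limma in either tissue. Within a tissue both knockouts were set against the same 10 wild-type arrays, so their differences are not independent of each other. In S1P2-KO neocortex 0 members passed, against 0.0% of all probe sets, and 4 (8.33%) had an unadjusted p under 0.05, against 8.74%. In S1P3-KO neocortex 0 passed (0.0% of all) and 5 (10.4%) had such a p (10.5% of all). In S1P2-KO hippocampus 0 passed (0.0%) and 4 (8.33%) had such a p, against 5.54%, and in S1P3-KO hippocampus 0 passed (0.0352%) and 4 (8.33%) had such a p, against 9.54%. The shares of members thus lay near those of all probe sets. The median difference over the 48 members lay between -0.02 and 0.03 in the 4 comparisons. The 95% interval lay wholly within 1 log2 unit of 0, a 2-fold change, for 47 of 48 members in S1P2-KO neocortex, 39 in S1P3-KO neocortex, 41 in S1P2-KO hippocampus and 37 in S1P3-KO hippocampus.

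**Figure D4:**
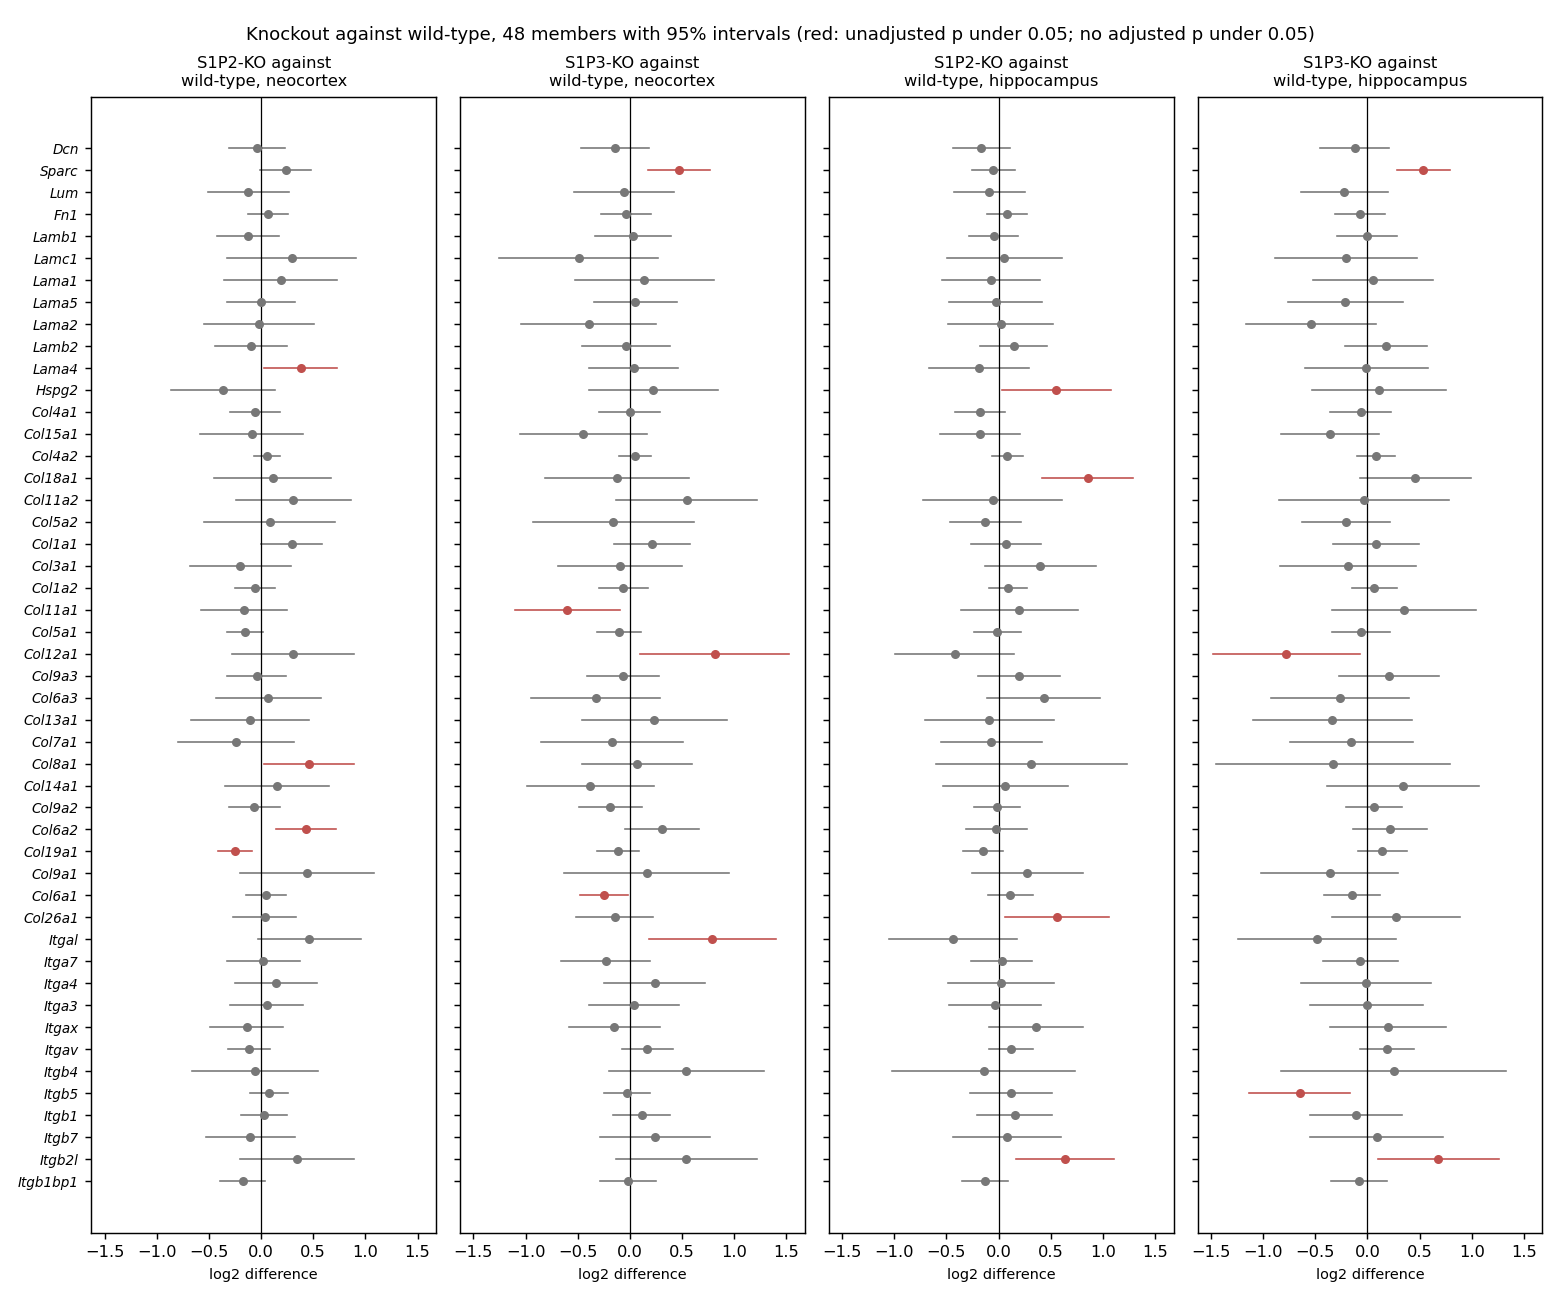
Log2 difference from wild-type (x axes) for the 48 tested members in the 4 comparisons of knockout and tissue (panels; wild-type n = 10, S1P2-KO n = 10, S1P3-KO n = 5); points are limma estimates, bars 95% intervals, red marks an unadjusted p under 0.05. No member had an adjusted p under 0.05, and Sparc is red in both S1P3-KO panels (0.47 and 0.54).

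The members with the smallest p in S1P2-KO neocortex were 2 collagens with opposite signs. Col19a1 was at 750.4 to 1214.8 (median 995) against 998.2 to 1387.1 (median 1202) in wild-type, with 9 of 10 S1P2-KO arrays below the wild-type median, and differed by -0.25 ± 0.08 (limma adjusted p = 0.296). Col6a2 was at 661.3 to 988.6 (median 849) against 361.1 to 958.7 (median 608), with all 10 S1P2-KO arrays above the wild-type median, and differed by 0.43 ± 0.14 (limma adjusted p = 0.327). The groups overlapped in each case. Lama4 and Col8a1, a chain of the short-chain network collagen VIII, had differences of 0.38 ± 0.17 and 0.46 ± 0.21 (limma adjusted p = 0.499 and 0.516).

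In S1P2-KO hippocampus Col18a1, the precursor of endostatin, had the smallest p. Its signal was 386.7 to 572.7 (median 459) against 108.6 to 412.0 (median 293) in wild-type, 8 of 10 S1P2-KO arrays being above every wild-type array, and the difference was 0.85 ± 0.21 (limma adjusted p = 0.494). A second, dimmer Col18a1 set differed by 0.45 ± 0.28, and the mean over the sets of the gene by 0.25, which did not pass. Itgb2l, a leukocyte beta chain related to Itgb2, differed by 0.64 ± 0.23 (limma adjusted p = 0.809), Col26a1 by 0.56 ± 0.24 (0.852) and Hspg2 by 0.55 ± 0.25 (0.884). Beside these, the summed choroid plexus signal was 1469.7 to 29466.1 (median 10768) on S1P2-KO hippocampus arrays and 1202.6 to 39499.8 (median 4232) in wild-type. Ttr alone had medians of 7536 and 2321 on these arrays. The median difference of the 15 meningeal and fibroblast markers was 0.18. With the mean of the meningeal list as a covariate Col18a1 differed by 0.71 (limma adjusted p = 0.976), and with that of choroid plexus by 0.84 (adjusted p = 0.734).

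Sparc had the smallest p of any member in S1P3-KO mice, in each tissue. In neocortex the 5 arrays read 1491.7, 1161.5, 1145.3, 1375.1 and 1605.5, against 721.2 to 1330.7 (median 962) in wild-type. All 5 were above the wild-type median and 3 were above every wild-type array, and the difference was 0.47 ± 0.15 (limma adjusted p = 0.231). In hippocampus they read 2982.7, 2785.3, 3449.7, 2848.3 and 4418.1, against 1688.1 to 2748.1 (median 2319), so that all 5 exceeded every wild-type array. The difference was 0.54 ± 0.12 (limma adjusted p = 0.108). The highest value, 4418.1, came from replicate 5, the array with the log2 control ratio of 4.46, and without it the difference was 0.43 (limma adjusted p = 0.291). In S1P2-KO mice Sparc differed by 0.24 ± 0.12 in neocortex and -0.05 ± 0.10 in hippocampus (limma, neither called). Gfap, an intermediate filament of astrocytes, was called in S1P3-KO hippocampus (0.84 ± 0.14, limma adjusted p = 0.0273), while the 8 astrocyte markers had a median of 0.04 there and 0.13 in neocortex, and the 13 endothelial markers 0.09 and 0.12. Their part in the Sparc values was not tested.

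The other S1P3-KO members with an unadjusted p under 0.05 were Itgal, Col11a1, Col12a1 and Col6a1 in neocortex and Itgb5, Itgb2l and Col12a1 in hippocampus. Col6a1 read 1338.1, 1661.7, 1710.4, 1843.0 and 1838.0 in S1P3-KO neocortex, all below the wild-type median of 1948. It differed by -0.25 ± 0.11 (limma adjusted p = 0.438), and its second set by -0.36 ± 0.19. The ranges overlapped, with 1 of 5 arrays below every wild-type array. Itgb2l read 311.8, 226.3, 199.8, 174.0 and 147.3 in S1P3-KO hippocampus, all above the wild-type median of 109, and differed by 0.68 ± 0.28 (limma adjusted p = 0.452). Only the first of these exceeded the highest wild-type array, at 246.8. Itgal read 348.3, 273.0, 352.1, 276.8 and 238.2 in S1P3-KO neocortex, all above the wild-type median of 192, and differed by 0.79 ± 0.30 (limma adjusted p = 0.342). Col11a1, a minor fibrillar chain, read 124.0, 121.4, 104.8, 131.3 and 111.6, all below the wild-type median of 219, and differed by -0.60 ± 0.25 (limma adjusted p = 0.392). Col11a1 stayed within the wild-type range and 2 of 5 Itgal arrays exceeded it. Col12a1, a fibril-associated collagen, had opposite signs in the tissues: it read 130.3, 399.2, 278.1, 379.5 and 372.9 in S1P3-KO neocortex and 408.6, 55.1, 162.4, 123.4 and 86.3 in hippocampus, and differed by 0.81 ± 0.35 and -0.78 ± 0.34 (limma adjusted p = 0.413 and 0.489). Itgb5 read 1407.8, 1542.0, 2191.3, 1638.9 and 332.9 in S1P3-KO hippocampus, against 1697.5 to 2065.6 in wild-type, and differed by -0.65 ± 0.23 (limma adjusted p = 0.397). The value of 332.9 was again replicate 5. Without that array the difference was -0.21 (limma adjusted p = 0.627), and a second Itgb5 set gave 0.01 ± 0.17 with all arrays.

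**Figure D5:**
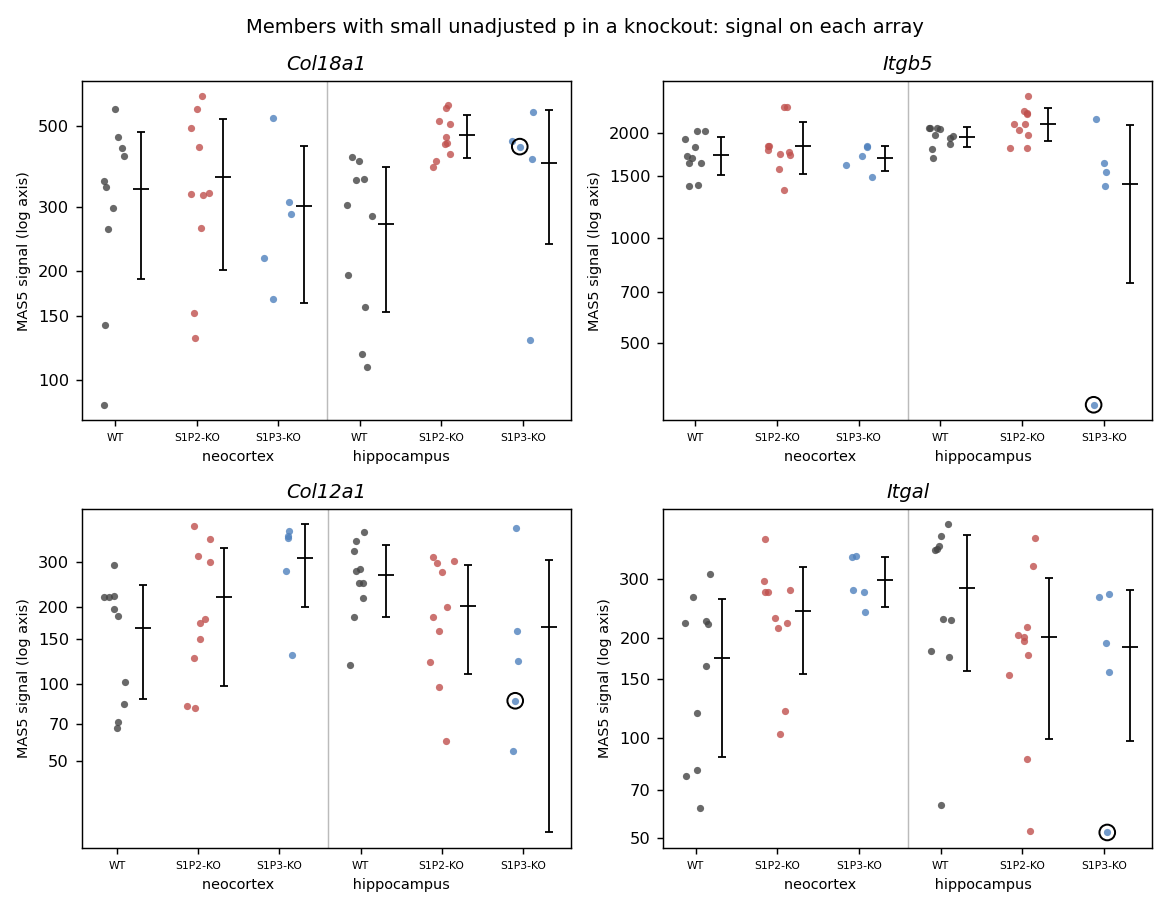
MAS5 signal on each array (y axis, log scale) in the 6 groups (x axis; WT is wild-type) for Col18a1, Itgb5, Col12a1 and Itgal; points are arrays, bars the mean ± SD, and circles mark S1P3-KO hippocampus replicate 5, whose log2 control ratio was 4.46. For Itgb5 that array (332.9) lies below all others, and for Col18a1 the S1P2-KO hippocampus arrays start at 386.7.

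Of the genes called between tissues in wild-type, Dcn, Lamb1 and Itgav had knockout differences that did not pass and had no unadjusted p under 0.05. Sparc, Col6a1, Col19a1 and Col26a1 did have such a p, as given above. Dcn differed from wild-type by -0.04 ± 0.13 in S1P2-KO neocortex, -0.14 ± 0.16 in S1P3-KO neocortex, -0.17 ± 0.13 in S1P2-KO hippocampus and -0.12 ± 0.16 in S1P3-KO hippocampus. Lamb1 lay between -0.12 and 0.03 in the same comparisons, and Itgav between -0.12 and 0.19. Of the collagen IV chains, Col4a2 differed by 0.05 ± 0.06, 0.05 ± 0.08, 0.08 ± 0.07 and 0.08 ± 0.09 in that order, and Col4a1 by -0.06, 0.00, -0.18 and -0.06. No limma adjusted p of these genes was under 0.05 in any of these comparisons. The 5 lists of enzymes, proteases, proteoglycans, adhesion and TGF-beta genes had 0 calls in all 4 comparisons, with medians between -0.12 and 0.11.

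Whether a knockout's difference itself differed between tissues was tested in 1 model of all 50 arrays. For S1P2-KO 0 of 48 members passed, against 0.0% of all probe sets, and 4 (8.33%) had an unadjusted p under 0.05, against 2.6%: Hspg2 (0.91 ± 0.36), Itgal (-0.90 ± 0.39), Col6a2 (-0.45 ± 0.20) and Col18a1 (0.74 ± 0.36), each with a limma adjusted p of 1.0. For S1P3-KO 0 passed (0.0%) and 4 (8.33%) had such a p, against 5.13%. They were led by Col12a1 (-1.59 ± 0.50, limma adjusted p = 0.875), Itgal (-1.27 ± 0.48) and Itgb5 (-0.62 ± 0.27). The Itgb5 value includes the low hippocampus replicate 5. Second sets gave -0.295 ± 0.30 for Itgb5 and -1.09 ± 0.50 for Col12a1. The same contrast compares the tissue difference between genotypes, so the values of Sparc (-0.29 ± 0.16 for S1P2-KO and 0.06 ± 0.19 for S1P3-KO) and Itgav (0.24 ± 0.15 and 0.02 ± 0.18) did not pass either. Between females and males 0 of 48 members passed in neocortex and 0 in hippocampus, against 0.0586% of all probe sets in each, and 3 (6.25%) had an unadjusted p under 0.05 in each, against 6.15% and 5.13%. Col8a1 was among them in both tissues (-0.57 ± 0.19 and -0.83 ± 0.40 in females, limma adjusted p = 0.692 and 0.952).

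Finally, genes whose products assemble or share a structure were compared over arrays. For 16 pairs in each tissue, 32 relations in all, log2 signals were centred on each genotype's mean and correlated over 25 arrays, and 0 passed after Benjamini-Hochberg adjustment of permutation p-values. The smallest p was that of Col6a1 and Col6a2 in hippocampus (Pearson r = 0.49, permutation p = 0.0146, adjusted 0.467; Spearman rho = 0.44, permutation p = 0.0355, adjusted 0.803). Without the 2 arrays farthest from the Col6a1 median r was 0.28, and the size of that drop was not tested. In neocortex r was -0.20 (permutation p = 0.284). For Col4a1 and Col4a2, which share their promoter region, r was 0.01 in neocortex and -0.09 in hippocampus (permutation p = 0.979 and 0.709; rho = -0.04 and -0.15, permutation p = 0.848 and 0.496). Lamb1 and Lamc1 had r = -0.39 and -0.18 (permutation p = 0.0731 and 0.401), and Itgav and Itgb5 0.18 and -0.13 (0.414 and 0.551). Over the 11 pairs with both genes above the brightness filter, 9 of 22 relations were positive.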

How the data were processed

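Single-channel oligonucleotide arrays gave the authors' deposited intensity values, 1 per probe set and array for 12488 probe sets, on a linear scale; per the submitters' processing notes these are MAS5 signals, with the software's version not given in the sources used here. Per the labels' protocols, 12 µg of TRIzol-extracted RNA was labelled with biotin. Groups, sexes and replicate numbers came from the sample titles, since the design text names S1P2-deficient mice for both knockouts, with different group sizes, and so does not say which knockout had 10 arrays. Genes were named through the platform annotation (10855 probe sets with 1 symbol, 396 with several, 1237 with none) and all 67 members matched RefSeq symbols. The members and gene lists were chosen with earlier results of these data known.

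Computed values are log2(signal + 30.7), the 10th percentile of all signals. Probe sets were tested if their mean log2 value exceeded that of the 30th percentile (132.6) plus 30.7, which left 8534 after removal of 66 control sets. limma 3.58.1 in R 4.3.3 (lmFit, eBayes with trend; tested on simulated data) was fitted in each tissue over 3 genotypes with sex, or over all 50 arrays with a mean per group and sex within tissue, with Benjamini-Hochberg adjustment over 8534 probe sets and a threshold of 0.05. Pair correlations used 100000 two-sided permutations within genotype. Named genes are the 2 brightest members of each class, every member called between tissues in wild-type, the 4 of smallest p in each knockout, sex or interaction comparison without calls, members whose probe sets disagree in sign on a called difference, and up to 3 called genes per list; Lum, Lama1, Lama2, Lamb2, Col1a1, Col3a1, Col6a3, Col9a1 and Col9a2 were named after their values were seen, as partner chains. Nothing says whether arrays of equal number share an animal, and no pairing was used. Replicates are called biological in the titles. The number of arrays limits the precision. Alternatives were pseudocounts of 1 and 100, other filters, quantile normalization, means over probe sets, covariates, array weights, a replicate block and leaving out arrays.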

Additional observations from a re-analysis of the deposited data

Results flagged for a closer look

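Over 31 named members and 6 groups, 186 sets of arrays were examined for a single array whose gap to its neighbour took an unusually large share of the group's range (Dixon's 95% limit), and 13 were found; chance gives about 1 in 20.

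In wild-type mice these were Hspg2 in neocortex replicate 3 (650.1, the next value being 397.5), Lama4 in neocortex replicate 7 (low, at 87.9 against 278.2) and Col4a1 in hippocampus replicate 2 (2038.0 against 1602.1), the hippocampus array with the highest Ttr signal of its group (33070.8). In S1P2-KO hippocampus Sparc (2848.0 against 2342.8) and Itgav (3876.3 against 2983.7) were highest on replicate 7, whose log2 control ratio was 1.37. Col11a1 was highest there on replicate 6 (350.9 against 230.7) and Col6a1 on replicate 10 (2263.5 against 1581.1).

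In S1P3-KO mice 4 of the 6 were in hippocampus: Col9a3 was high on replicate 3 (2334.7 against 1215.5), Dcn was high on replicate 2 (4032.0 against 2858.6), and Col15a1 (54.0 against 187.2) and Lama5 (171.9 against 486.3) were low on replicate 1. In neocortex Col4a2 was low on replicate 1 (2020.9 against 2381.9) and Lamb1 low on replicate 5 (163.3 against 307.1). None of these members was called in a knockout against wild-type, though some were called between tissues, as given above. The part of RNA quality or of carried-over choroid plexus in these values was not tested.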

How the results depend on the processing

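The number of members called between tissues in wild-type was 10 and stayed between 8 and 12 over 14 alternatives and between 9 and 11 with single arrays left out. It was 11 (9 to 13; 10 to 12) in S1P2-KO and 6 (3 to 8; 5 to 7) in S1P3-KO mice, where the 3 came from a fit of only the groups compared. In the knockout, interaction and sex comparisons 0 members were called under every alternative run. With a replicate block the tissue counts were 12, 13 and 6 and those of the knockouts 0. Arrays of equal number in both tissues are not known to share an animal. In the knockout comparisons the block joined arrays of different mice, so it is no check of those counts. Deviations of same-numbered neocortex and hippocampus arrays correlated above 0.1 in 6 of 10 wild-type, 9 of 10 S1P2-KO and 2 of 5 S1P3-KO pairs. In these, 3, 5 and 2 arrays correlated best with their own number. Same-numbered S1P2-KO and wild-type arrays, from different mice, exceeded 0.1 in 4 of 10 pairs in hippocampus and 1 of 10 in neocortex. There 2 and 1 arrays were best with their own number, and for S1P3-KO against wild-type all these counts were 0. Same-numbered arrays of the 2 tissues also share their sex, for which the deviations were not centred. These values thus cannot tell whether arrays of equal number share an animal. Single differences were followed for the 10 members called in wild-type and, in each knockout and tissue against wild-type, for the members of smallest p. None of these differences changed sign under any alternative run. Calls were lost for Itgb1bp1 with the mean of all probe sets and for Col5a2 as given above. The signs of the other named differences, among them Itgb1 and Col1a1 with probe sets of mixed sign, were not followed. The number of arrays, 5 in S1P3-KO, and dim MAS5 signals limit what can be detected.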
